A study of Mus musculus with 12 samples.

Results

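Growth factors made by macrophages, the HGF receptor Met and the matrix protein fibronectin were followed by their RNA in bone marrow-derived macrophages (BMDMs), a primary culture in which marrow precursors of the mouse mature into macrophages. The set holds 10 of the 48526 genes in the count table: Igf1, Vegfa, Pdgfa, Pdgfb, Hbegf, Hgf, Areg, Ereg, Met and Fn1. They were picked by gene symbol, with earlier results of these data known, and the rule itself uses no measured value. The cells came from 3 female C57Bl/6J mice with no genetic change named in the labels, which give no age. Whole marrow was grown in low-glucose DMEM with the macrophage growth factor mCSF at 10 ng/mL until day 7. For 16 hours, cells of each mouse were then kept with no agent added (Untreated), with IL-4 at 100 pg/mL (IL4), with Wnt3a at 100 ng/mL (Wnt3a) and with both agents (Wnt3a+IL4). Each group thus held 1 sample from each of 3 mice. The study asked how Wnt signaling changes the response of macrophages to IL-4.

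The Wnt3a and Wnt3a+IL4 columns of a mouse share reads. In every gene, the count of the Wnt3a column was at least 1 and at most 2 times that of the Wnt3a+IL4 column, with 0 of 48526 genes outside, whereas 6681 to 8625 genes lay outside when the columns came from different mice. Such bounds hold where the Wnt3a+IL4 column adds up 2 libraries and the Wnt3a column counts the first of them again. Taking that as so, the first library is the Wnt3a column minus the Wnt3a+IL4 column and is called the difference, and what is left of the Wnt3a+IL4 column is called the remainder. Either part comes from cells given Wnt3a, but the labels do not say which of them also had IL-4, and the values were not used to settle it. Results that need this are given for both readings.

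The 12 libraries held 13342492 to 17453377 counts. Levels are in CPM, a gene's counts scaled to a common library total with TMM, which offsets differences in RNA composition, and each mean is given ± SD with n = 3 mice. Of the 8 macrophage markers, which include Csf1r, Adgre1 and Lyz2, all were present, with a summed level of 43979 to 68614 CPM. Markers of other cells were lower: 0 to 0.263 CPM for 5 T and NK cell markers, 2.6 to 3.87 CPM for 4 B cell markers, 0 to 0.55 CPM for 5 mast cell and basophil markers, and 0.286 to 1.44 CPM for 5 megakaryocyte markers. The 8 neutrophil markers summed to 48.9 to 61.2 CPM in Untreated, 64.7 to 75.2 in IL4, 35.7 to 56.5 in the difference and 32 to 36.3 in the remainder, so that IL4 lay above and the remainder below every Untreated library. The 5 endothelial markers summed to 275 to 425 CPM through Vwf and Kdr, while Cdh5, Tek and Emcn reached at most 5 counts in any library. The summed level of 5 dendritic cell markers was 0.965 to 1.74 CPM in the Untreated and IL4 libraries, 2.98 to 7.67 CPM in the difference and 8.48 to 21.1 CPM in the remainder, where Ccr7 reached 319 counts. Of the other markers on that list, Flt3 reached at most 5, Siglech 6, Xcr1 11 and Zbtb46 28 counts in any library. The part of neutrophils or dendritic cells in the results on IL4, the difference and the remainder was not tested. In RNA from whole cultures, fewer cells of a type and less RNA per cell cannot be told apart.

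Growth factors of the repair phase act through receptor tyrosine kinases. IGF1 binds the IGF1 receptor, VEGFA binds VEGF receptors on endothelial cells, PDGF chains form dimers that act on stromal cells and smooth muscle, HGF binds MET, and HBEGF, amphiregulin (Areg) and epiregulin (Ereg) are EGF receptor ligands that are cut from the cell surface. Fibronectin is a matrix protein of healing tissue that cells bind through integrins. Macrophages of healing tissue are known as a source of several of these factors, and Igf1 in particular is widely used as a gene of alternatively activated macrophages.

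The 10 genes lie on 7 chromosomes of the mouse genome build mm10 (GRCm38), all as protein-coding genes. Igf1 spans chromosome 10 from 87858265 to 87937042, Vegfa chromosome 17 from 46016993 to 46032369, Pdgfb chromosome 15 from 79995874 to 80014977, Met chromosome 6 from 17463800 to 17573980 and Fn1 chromosome 1 from 71585520 to 71653200. On chromosome 5 are Hgf from 16553495 to 16620152, Pdgfa from 138976014 to 138997370, Ereg from 91074622 to 91093646 and Areg from 91139599 to 91148432. In Pdgfa, 26.1% of exon bases are also exon of 6330403L08Rik on the other strand, a gene with 153 to 336 counts per library, and the strand setting of the counting is not given in the sources used here, so reads of both genes cannot be told apart there. In Hgf, 6.74% of exon bases overlap Gm43489, which had 0 to 6 counts. Of Fn1, 2.5% overlap Apol7d, which had 0 counts, and Ereg shares 3.42% with Gm19610, which also had 0 counts.

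RefSeq promoter windows were matched for 6 of the 10 genes (Igf1, Vegfa, Pdgfa, Hgf, Met and Areg), and 2 that lie clear of annotated exons are shown because they bracket the range of RNA levels: Vegfa, among the most abundant members, and Areg, with no read. Each run is the 250 bases before the RefSeq start in build GRCm38.p6, read on the strand of the gene, with matches to the motifs below in capitals.
Vegfa promoter, chr17:46032378-46032627, minus strand: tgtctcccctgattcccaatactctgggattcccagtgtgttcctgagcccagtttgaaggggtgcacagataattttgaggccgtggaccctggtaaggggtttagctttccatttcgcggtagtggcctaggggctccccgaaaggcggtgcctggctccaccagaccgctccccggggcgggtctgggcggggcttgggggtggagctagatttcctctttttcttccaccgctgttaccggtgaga
Areg promoter, chr5:91139349-91139598, plus strand: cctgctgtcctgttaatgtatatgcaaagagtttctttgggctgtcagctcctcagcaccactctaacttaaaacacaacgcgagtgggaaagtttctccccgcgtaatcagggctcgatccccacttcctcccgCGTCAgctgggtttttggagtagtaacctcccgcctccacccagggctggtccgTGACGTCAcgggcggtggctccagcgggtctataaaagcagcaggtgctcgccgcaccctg
Motifs were searched on both strands: the STAT6 spacing TTCNNNNGAA (present in 5.85% of all 32851 windows of this length), the STAT3 spacing TTCNNNGAA (7.02%), the TCF/LEF core CTTTGA (13.8%), the CRE half-site TGACG (17.8%) and the AP-1 site TGANTCA (6.75%). The Vegfa window printed held 0 matches. The Areg window held 3 matches to the CRE half-site, at positions -115, -61 and -58 from the start, of which the last overlaps the one before it. The windows not shown overlap annotated exons, except 1 of Hgf with 0 matches. That of Igf1, with 250 of its 250 bases in exons and none upstream of the gene, held the TCF/LEF core at -186 and an AP-1 site at -37. That of Met held an AP-1 site at -54, another window of Vegfa the CRE half-site at -209, and 1 of 2 windows of Pdgfa the CRE half-site at -205. A match says only that the letters are there.

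Per kilobase of exon, Igf1 was the most abundant member in the Untreated cells, at 61.1 ± 4.72 CPM per kb, followed by Vegfa at 42.1 ± 3.39, Pdgfb at 23.7 ± 3.28 and Pdgfa at 10.1 ± 0.489 CPM per kb. These 4 means lay further apart than their SDs. Igf1 stood above 94.8% of the 12392 tested genes with an exon length on this scale. Hgf at 1.2 ± 0.493, Fn1 at 0.389 ± 0.169 and Met at 0.299 ± 0.0872 CPM per kb were low, and the spreads of Fn1 and Met overlapped. Met stood above 8.18% of genes. Hbegf had 0 to 9 counts per library, and Areg and Ereg had 0 counts in all 12 libraries, which allows a level of up to 0.161 to 0.218 CPM per library (3 counts, for counting error only). In the IL4 cells the order changed in 1 place, with Pdgfb at 30 ± 2 CPM per kb beside Vegfa at 26.9 ± 6.72, whose spreads overlapped. In the difference, Vegfa at 37.3 ± 1.31 CPM per kb was listed above Igf1 at 31.3 ± 3.51, and Met at 0.891 ± 0.0758 above Fn1 at 0.407 ± 0.202. In the remainder Igf1 led again at 85.6 ± 0.374 CPM per kb.

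**Figure D1:**
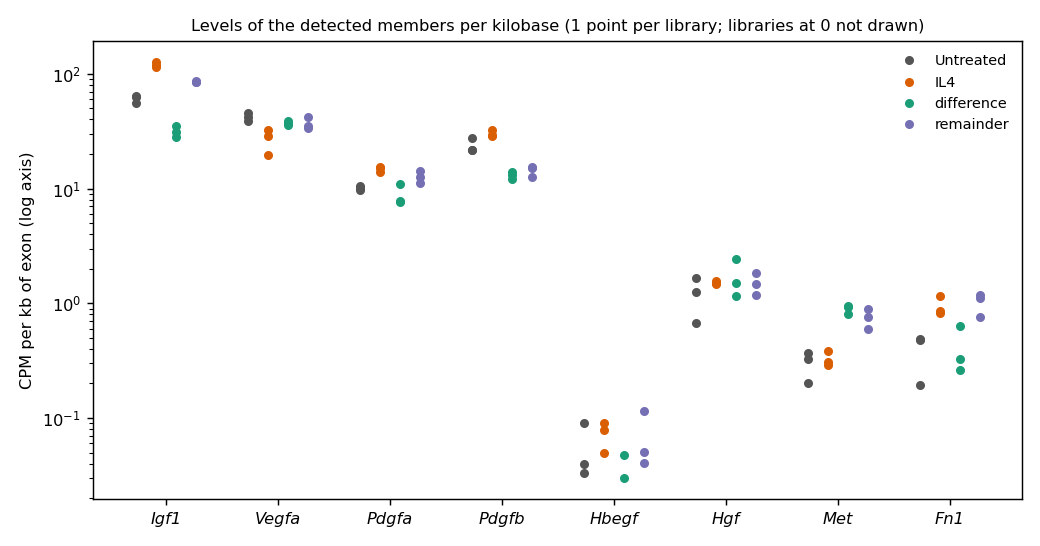
Levels of the 8 members with at least 1 count, in CPM per kb of exon on a log axis, with 1 point per library and a color for each group. Group means of Igf1, Vegfa, Pdgfb and Pdgfa are 8.81 CPM per kb or more, and those of Hgf, Fn1, Met and Hbegf 1.69 or less. The library at 0 (Hbegf) is not drawn.

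A gene was tested where at least 10 counts were found in at least 3 libraries, which kept 12421 genes and 7 of the 10 members, while Hbegf, Areg and Ereg did not pass. A gene was called where its Benjamini-Hochberg adjusted p from edgeR's quasi-likelihood test was under 0.05. The comparisons with Untreated share the 3 Untreated libraries. Between IL4 and Untreated, 3 of the 7 tested members were called, 2 higher (Igf1 and Pdgfa) and 1 lower (Vegfa), where 3.40% of all tested genes were called, 2.31% higher and 1.09% lower. Between the difference and Untreated, 3 were called, with Met higher and Igf1 and Pdgfb lower, against 23.2% of all genes (11.8% higher, 11.4% lower). Between the remainder and Untreated, 4 were called, with Igf1, Met and Fn1 higher and Pdgfb lower, against 25.3% of all genes (13.6% higher, 11.7% lower). The remainder exceeded the difference in 3 members, Igf1, Pdgfa and Fn1, and fell below it in 0, against 5.25% of all genes (2.87% higher, 2.38% lower). Against IL4, 6 members were called in the difference, 2 higher and 4 lower, where 20.3% of all genes were called (10.0% higher, 10.3% lower). The same comparison for the remainder called 4 members, 2 higher and 2 lower, against 20.3% (10.6% higher, 9.67% lower). With library totals alone as the scaling, the share of higher calls among all genes went from 68% to 53.8% for IL4, from 50.7% to 33.6% for the difference and from 53.8% to 35.6% for the remainder against Untreated, and the median of all genes moved by -0.11 on the log2 scale for the remainder. The 10 member calls against Untreated had the same direction under that scaling, and that on Pdgfa with IL-4 was lost (adjusted p = 0.052).

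**Figure D2:**
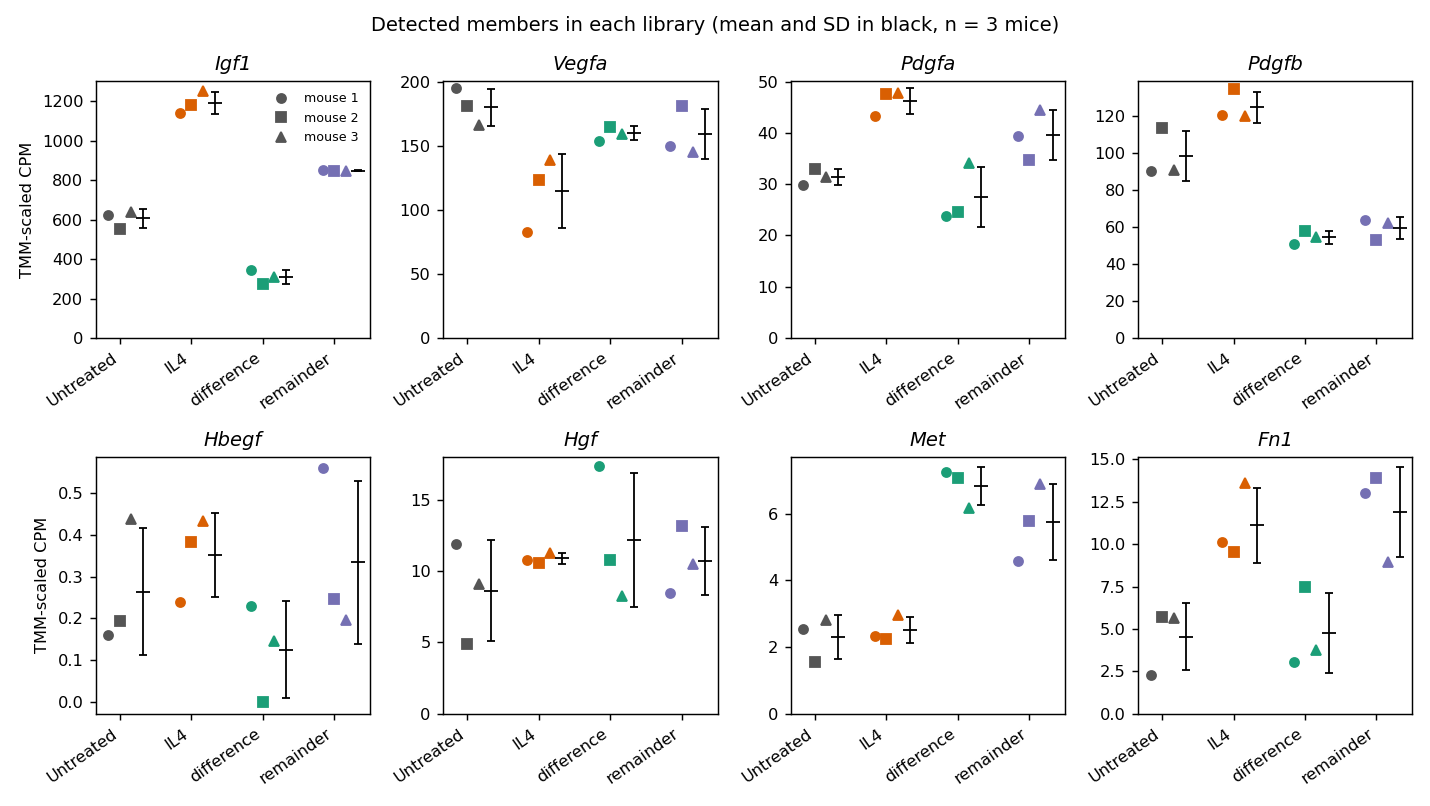
TMM-scaled CPM of the 8 members with at least 1 count in each of the 12 libraries, with a symbol for each mouse and the mean and SD (n = 3) in black beside each group. Igf1 separates all 4 groups, Pdgfb and Met separate Untreated and IL4 from the difference and the remainder, and Fn1 separates IL4 and the remainder from the other 2 groups.

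Igf1, the insulin-like growth factor that macrophages secrete, was highest in the IL4 cells and lowest in the difference. It measured 625, 552 and 639 CPM in the Untreated cells of mouse 1, 2 and 3, and 1140, 1182 and 1254 CPM in the IL4 cells. The difference held 345, 276 and 308 CPM and the remainder 853, 846 and 846 CPM. No group overlapped another, and every mouse had the same order, with IL4 highest, then the remainder, Untreated and the difference. Igf1 rose 1.97-fold with IL-4 (log2 fold change 0.98, SE 0.09, adjusted p = 2.6e-05). It was 1.96-fold lower in the difference than in Untreated (log2 fold change -0.97, SE 0.09, adjusted p = 3.1e-06) and 1.4-fold higher in the remainder (0.49, SE 0.09, adjusted p = 0.0011). The remainder exceeded the difference 2.74-fold, between 2.47-fold and 3.07-fold in the single mice (adjusted p = 6.8e-07). Both parts stayed below the IL4 cells, the difference 3.85-fold (adjusted p = 4e-09) and the remainder 1.41-fold (adjusted p = 0.0012). The last of these calls was lost when mouse 3 was left out (adjusted p = 0.097), while the other 5 held with any mouse or library left out. Taken from the columns as deposited, the Wnt3a+IL4 column differed from Untreated by -0.08 on the log2 scale (adjusted p = 0.44), the opposite sign to the remainder, since that column also holds the reads of the difference.

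Of the genes that work with IGF1, 7 of 14 in the list of IGF family members and binding proteins passed the filter. Against Untreated, 1 fell in the IL4 cells, while 3 rose and 2 fell in the difference and likewise in the remainder. Among all tested genes, 3.40%, 23.2% and 25.3% were called in IL4, the difference and the remainder against Untreated. The same shares apply to the lists below. Igfbp7, a secreted IGF-binding protein of the vessel wall, averaged 0.616 ± 0.254 CPM in Untreated, 0.798 ± 0.652 in IL4, 19.6 ± 1.52 in the difference and 7.16 ± 1.57 in the remainder. It rose by 5.0 (SE 0.37) on the log2 scale in the difference and by 3.55 (SE 0.38) in the remainder, and the remainder was lower than the difference (adjusted p = 0.0058). Igfbp4, which sequesters IGFs, averaged 453 ± 79.8 CPM in Untreated, 284 ± 28.7 in IL4, 210 ± 55.3 in the difference and 137 ± 16.6 in the remainder. It fell by 1.11 (SE 0.18) in the difference and by 1.72 (SE 0.18) in the remainder on the log2 scale, and its call with IL-4 lay at the threshold (-0.68, SE 0.17, adjusted p = 0.04998) and was lost in 7 of 9 fits that left out a mouse or a library. The median log2 fold changes of the 7 tested genes were -0.06 and -0.11 in the parts, beside -0.012 and -0.024 over all genes.

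Vegfa, the main endothelial growth factor, was lower in the IL4 cells. Its level was 195, 181 and 166 CPM in Untreated against 83.1, 123 and 139 CPM in IL4, and the groups did not overlap. The IL4 library of mouse 1 was the lowest of the 12. Vegfa fell 1.57-fold (log2 fold change -0.65, SE 0.15, adjusted p = 0.024), with folds in the single mice from 0.426 to 0.837. The call depended on the libraries: it was lost in 7 of 9 fits that left out a mouse or a library, with adjusted p up to 0.11, and of these 9 it held only without the IL4 library of mouse 1 or that of mouse 3. With only the groups compared, the call was lost too (adjusted p = 0.063). The difference held 154, 165 and 159 CPM and the remainder 150, 181 and 145 CPM. Neither was called against Untreated, with 95% intervals of the log2 fold change from -0.49 to 0.14 and from -0.50 to 0.13. Against IL4, Vegfa was higher by 0.47 (SE 0.15, adjusted p = 0.034) in the difference and by 0.46 (SE 0.15, adjusted p = 0.038) in the remainder, but these calls were lost in 8 and in 6 of 9 fits that left out a mouse or a library. Both were also lost with library totals as scaling, and that in the remainder with only the groups compared. The parts themselves differed by -0.01 (95% interval -0.32 to 0.30).

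In the VEGF list, 7 of 9 other genes were tested, of which 2 rose and 0 fell with IL-4, 2 rose and 2 fell in the difference, and 3 rose and 1 fell in the remainder. Flt1, which encodes VEGF receptor 1, rose from 3.32 ± 1.16 CPM in Untreated to 33.8 ± 5.94 CPM with IL-4 (log2 fold change 3.33, SE 0.26, adjusted p = 4.6e-06). It fell to 0.664 ± 0.37 CPM in the difference (-2.27, SE 0.39) and rose to 16 ± 3.84 CPM in the remainder (2.25, SE 0.26). Vegfc, a lymphatic growth factor, measured 0.495 ± 0.157 CPM in Untreated, 1.47 ± 0.278 in IL4, 1.16 ± 0.214 in the difference and 2.67 ± 0.884 in the remainder. It was called higher in all 3 comparisons with Untreated. For IL4 the call was lost in all 9 fits that left out a mouse or a library, for the difference in 6 of 9, and for the remainder in 0 of 9. Nrp1, a co-receptor for VEGF, fell from 288 ± 40.3 CPM to 177 ± 11.7 in the difference and to 141 ± 25.2 in the remainder.

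Pdgfb and Pdgfa encode the chains of PDGF and took different courses. Pdgfb measured 90.5, 114 and 90.9 CPM in Untreated, 121, 135 and 120 in IL4, 50.7, 58.1 and 54.7 in the difference and 63.7, 52.9 and 62.5 in the remainder. Every library of the parts lay below every Untreated and IL4 library. Pdgfb fell 1.81-fold in the difference (log2 fold change -0.85, SE 0.11, adjusted p = 4.3e-05) and 1.65-fold in the remainder (-0.72, SE 0.11, adjusted p = 0.00015), and both calls held with any mouse or library left out. The parts differed by 0.13 on the log2 scale (95% interval -0.10 to 0.36). With IL-4 alone, Pdgfb was 1.27-fold higher, in 3 of 3 mice and without overlap, but was not called (log2 fold change 0.34, SE 0.10, adjusted p = 0.1), though it was without a filter on low counts (adjusted p = 0.029) and without mouse 2 or its Untreated library. Against IL4, it was 2.29-fold lower in the difference and 2.09-fold lower in the remainder (adjusted p = 1.6e-06 and 5.9e-06).

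Pdgfa measured 29.9, 32.9 and 31.3 CPM in Untreated and 43.2, 47.6 and 47.7 CPM in IL4. It was 1.47-fold higher with IL-4 (log2 fold change 0.56, SE 0.13, adjusted p = 0.031), between 1.45-fold and 1.52-fold in the single mice. This call was lost in each of 9 fits that left out a mouse or a library, with adjusted p from 0.062 to 0.21 and log2 fold changes from 0.51 to 0.60. The difference held 23.7, 24.5 and 34.2 CPM and the remainder 39.3, 34.8 and 44.5 CPM, which did not overlap. The remainder exceeded the difference 1.44-fold (0.53, SE 0.13, adjusted p = 0.034), a call that was lost in 6 of 9 such fits, namely without mouse 1 or 3 and without either part of mouse 1, the difference of mouse 2 or the remainder of mouse 3. That call was also lost with only the groups compared and with the columns as deposited. Neither part was called against Untreated (adjusted p = 0.32 and 0.08), but the remainder was without a filter on low counts. The remainder lay above Untreated in 3 of 3 mice and without overlap. Of 9 fits that left out a mouse or a library, the remainder was called higher in 2, without mouse 2 or its remainder. The difference was called lower in 1, without the difference of mouse 3 (adjusted p = 0.039). Against IL4, Pdgfa was 1.68-fold lower in the difference (adjusted p = 0.00081), which held in all 9 fits. Of the 5 other genes of the PDGF list, 3 were tested, and with IL-4 0 were called by edgeR or DESeq2, with 0 at an unadjusted p under 0.05. In the difference 1 rose and 0 fell, and in the remainder 1 rose, Pdgfrl, and 0 fell. Pdgfrl, named here after its values were seen, had 4, 4 and 1 counts in Untreated and 26, 7 and 23 in the remainder (adjusted p = 0.0084). Pdgfrb, the receptor for PDGF-B, went from 1.02 ± 0.282 CPM in Untreated to 2.05 ± 0.41 in the difference (log2 fold change 1.0, SE 0.32, adjusted p = 0.036) and had 1.9 ± 0.35 CPM in the remainder (adjusted p = 0.058). The call in the difference was lost in 7 of 9 fits that left out a mouse or a library.

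The study blocked the product of Met, the receptor for HGF, with an antibody in its search for signals upstream of STAT3. It reported that this block did not lower Arg1 in cells given Wnt3a and IL-4. In the present counts, Met was low in every library and higher in both parts. Its counts were 47, 24 and 45 in Untreated, 39, 35 and 41 in IL4, 127, 116 and 85 in the difference and 74, 94 and 105 in the remainder. On the CPM scale these were 2.53, 1.54 and 2.82 in Untreated, 2.34, 2.24 and 2.96 in IL4, 7.27, 7.08 and 6.18 in the difference and 4.6, 5.78 and 6.9 in the remainder. The lowest library of the parts exceeded the highest Untreated or IL4 library. Met rose 2.97-fold in the difference (log2 fold change 1.57, SE 0.22, adjusted p = 0.00015) and 2.49-fold in the remainder (1.32, SE 0.22, adjusted p = 0.00058), with folds in the single mice from 2.19 to 4.59 and from 1.82 to 3.74. Both calls held in each of 9 fits that left out a mouse or a library. The parts differed by -0.25 (95% interval -0.69 to 0.19), and IL4 differed from Untreated by 0.12 (95% interval -0.40 to 0.64). Against IL4, Met was 2.74-fold higher in the difference (adjusted p = 0.00025) and 2.3-fold higher in the remainder (adjusted p = 0.0015).

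Hgf, the ligand of Met, was called in 0 of the 6 comparisons between groups, and without a filter on low counts in 1, the difference against Untreated (log2 fold change 0.50, adjusted p = 0.02). It measured 11.9, 4.89 and 9.09 CPM in Untreated, 10.8, 10.6 and 11.3 in IL4, 17.4, 10.8 and 8.29 in the difference and 8.45, 13.2 and 10.5 in the remainder. The Untreated library of mouse 2 was the lowest and the difference of mouse 1 the highest, and each pair of groups overlapped. The 95% intervals of the log2 fold change against Untreated ran from -0.30 to 0.96 for IL4, from -0.13 to 1.12 for the difference and from -0.33 to 0.93 for the remainder. Among the 12 other genes of HGF activation and Met signaling, 7 were tested. In IL4, 0 were called by edgeR or DESeq2, with 2 at an unadjusted p under 0.05, and in the difference and the remainder 3 rose and 1 fell. Spint1 and Spint2 encode inhibitors of the proteases that activate HGF. Spint1 rose from 1.82 ± 0.182 CPM to 10 ± 1.57 in the difference (log2 fold change 2.46, SE 0.23) and 8.89 ± 2.44 in the remainder (2.29, SE 0.24), and Spint2 from 2.36 ± 0.515 to 4.13 ± 0.812 and 6.26 ± 1.1. The call on Spint2 in the difference was lost in 6 of 9 fits that left out a mouse or a library. Plau, the urokinase protease that can cleave pro-HGF, fell from 31.6 ± 1.4 CPM to 11.8 ± 0.48 in the difference (-1.42, SE 0.13) and 17.5 ± 2.74 in the remainder (-0.85, SE 0.13), and the parts differed (adjusted p = 0.023).

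The EGF receptor ligands gave almost no reads. Areg and Ereg had 0 counts in each of 12 libraries, which over all 191576927 counts allows up to 0.0157 CPM. Hbegf, the heparin-binding ligand on chromosome 18 (36504927 to 36515805), had 3, 3 and 7 counts in Untreated, 4, 6 and 6 in IL4, 4, 0 and 2 in the difference and 9, 4 and 3 in the remainder, too few to pass the filter. Without a filter, it was called in 0 comparisons. At this depth, small differences of Hbegf between groups could be missed. In the list of other EGF family ligands, 2 of 8 genes were tested, and with IL-4 0 of them were called by edgeR or DESeq2, with 0 at an unadjusted p under 0.05. Nrg1, neuregulin 1, had 0, 2 and 1 counts in Untreated and 0, 1 and 0 in IL4, against 72, 33 and 14 in the difference and 133, 143 and 59 in the remainder. The summed counts of the remainder exceeded those of Untreated by a ratio of 118 (95% exact interval 39.9 to 573, counting error only) and those of the difference did so by 41.7 (13.9 to 205). Both were called (adjusted p = 8.8e-06 and 0.00031). Of 10 receptors and shedding genes, 8 were tested, of which 0 were called higher or lower with IL-4 by edgeR or DESeq2 (1 had an unadjusted p under 0.05), 2 rose and 2 fell in the difference, and 1 rose and 2 fell in the remainder. Rhbdf2, a partner of the sheddase Adam17, rose from 98.8 ± 1.43 CPM to 135 ± 8.2 in the difference, a call lost without mouse 3 (adjusted p = 0.071), and to 164 ± 21.7 in the remainder. Its relative Rhbdf1 fell from 5.84 ± 1.32 CPM to 1.94 ± 0.152 and 1.41 ± 0.42.

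Fn1, fibronectin, was low in Untreated cells and in the difference and higher in IL4 cells and in the remainder. Its counts were 42, 89 and 90 in Untreated, 169, 149 and 189 in IL4, 53, 122 and 52 in the difference and 209, 226 and 136 in the remainder. The CPM values were 2.26, 5.72 and 5.64 in Untreated, 10.1, 9.52 and 13.6 in IL4, 3.03, 7.45 and 3.78 in the difference and 13, 13.9 and 8.94 in the remainder. IL4 and the remainder did not overlap with Untreated or with the difference. Fn1 rose 2.65-fold in the remainder over Untreated (log2 fold change 1.41, SE 0.34, adjusted p = 0.0074), and this held in each of 9 fits that left out a mouse or a library. With IL-4, it was 2.46-fold higher without passing the threshold (1.30, SE 0.34, adjusted p = 0.057). It passed with the mouse as a replicate block (1.35, adjusted p = 0.044) and in DESeq2. The same held without a filter on low counts, with only the groups compared and with the columns as deposited. Of 9 fits that left out a mouse or a library, it passed in 1, without mouse 2 (adjusted p from 0.026 to 0.39). The remainder exceeded the difference 2.51-fold (1.33, SE 0.34, adjusted p = 0.039), a call that was lost in 6 of 9 such fits, with adjusted p up to 0.32: without mouse 1 or 3, without the difference of mouse 1 or 3, and without the remainder of mouse 1 or 2. That call was also lost with library totals as scaling, with only the groups compared and with the columns as deposited. Against IL4, Fn1 was 2.32-fold lower in the difference (adjusted p = 0.021), lost without mouse 3, the IL4 library of mouse 3, or the difference of mouse 1 or 3. The difference and Untreated differed by 0.08 (95% interval -0.70 to 0.86). Stromal cells also make fibronectin. The summed level of 8 fibroblast and stromal markers was 7.42 to 19.4 CPM in Untreated, 8.63 to 30.7 in IL4, 4.65 to 10.2 in the difference and 4.92 to 15.6 in the remainder, with Lum, Pdgfra and Thy1 at 2 counts or fewer in every library and Col1a1 at 36 to 197 counts. Within Untreated, the sums of mouse 1, 2 and 3 were 7.42, 19.4 and 19.1 CPM, with Fn1 lowest in mouse 1 too. The IL4 library of mouse 3 (30.7 CPM) and the difference of mouse 2 (10.2 CPM) had both the highest sum and the highest Fn1 of their groups. In the remainder the sums were 15.6, 4.92 and 7.95 CPM, with Fn1 highest in mouse 2, where the sum was lowest. The part of such cells in the values of Fn1 was not tested.

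Of 18 other genes for fibronectin receptors, matrix partners and crosslinkers, 15 were tested. With IL-4, 2 rose and 1 fell, in the difference 3 rose and 4 fell, and in the remainder 5 rose and 3 fell. Itgb3, a chain of an integrin that binds fibronectin and vitronectin, rose from 13.7 ± 0.811 CPM to 34.4 ± 4.67 with IL-4 (log2 fold change 1.33, SE 0.17), fell to 4.02 ± 0.82 in the difference (-1.77, SE 0.2) and rose to 25.4 ± 6.34 in the remainder (0.89, SE 0.17). Thbs1, thrombospondin 1, fell from 122 ± 13.4 CPM to 52.8 ± 14 with IL-4 (-1.21, SE 0.19) and rose to 736 ± 30.4 in the difference (2.6, SE 0.19) and 508 ± 141 in the remainder (2.06, SE 0.19). F13a1, the coagulation factor that crosslinks fibronectin, fell from 60.8 ± 13.6 CPM to 19.2 ± 6.33 in the remainder (-1.67, SE 0.26, adjusted p = 0.00025). In the difference it measured 70.7 ± 19.5 CPM and was not called against Untreated.

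**Figure D3:**
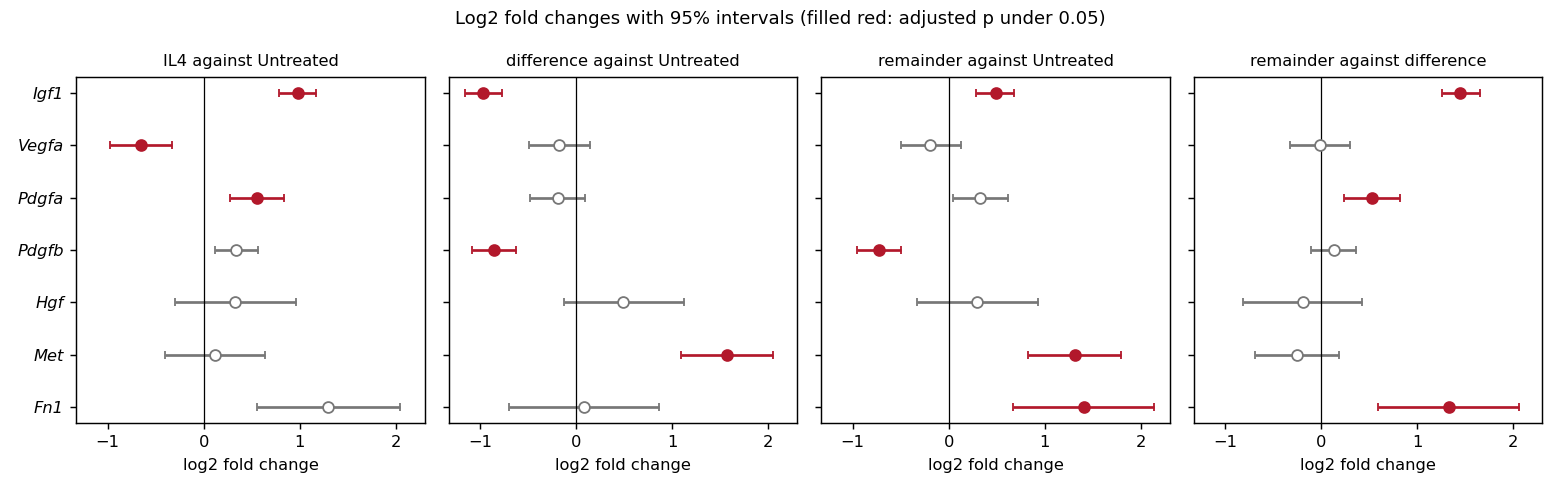
Log2 fold changes of the 7 tested members with 95% intervals in 4 comparisons, filled red where the adjusted p was under 0.05. Igf1 lies right of 0 for IL4 and the remainder and left of it for the difference, Met and Pdgfb are called on opposite sides in both parts, and Hgf crosses 0 in every panel.

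**Figure D4:**
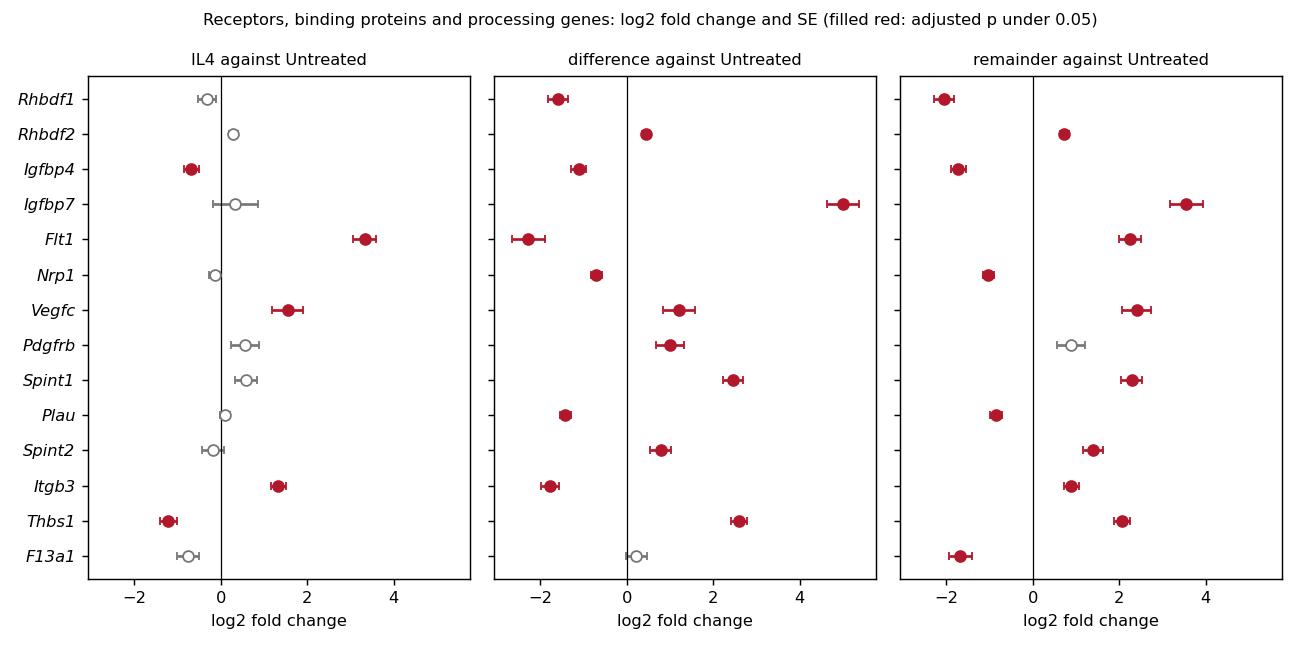
Log2 fold changes with SE of 14 receptors, binding proteins and processing genes against Untreated in IL4, the difference and the remainder, filled red where called. Flt1 and Itgb3 point right for IL4 and the remainder and left for the difference, while Igfbp7, Thbs1 and Spint1 are called higher in both parts.

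In all, 76 genes other than the members were on these lists and 49 were tested. With IL-4, 6 of them were called (12.2%), in the difference 26 (53.1%) and in the remainder 26 (53.1%). Among all 12421 tested genes, 3.40%, 23.2% and 25.3% were called in the same comparisons with Untreated. The median log2 fold changes of the tested genes in IL4, the difference and the remainder were 0.06, -0.12 and 0.25 in the VEGF list, and -0.14, 0.18 and -0.15 in the HGF list. They were 0.07, -0.11 and -0.19 for EGF receptors and shedding, and 0.21, -0.15 and -0.01 in the fibronectin list, beside -0.003, -0.012 and -0.024 over all 12421 genes. The smallest lists lay further from 0. The PDGF list, with 3 tested genes, had 0.56, 1.00 and 0.88, and the EGF family ligands, with 2, had -0.68, 2.43 and 3.61. The lists were chosen with results of these data known, so these shares describe the lists and support nothing beyond them.

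Whether Wnt3a changed the effect of IL-4 on these genes depends on which part is read as Wnt3a+IL4. With the remainder as Wnt3a+IL4, the effect of IL-4 with Wnt3a minus that without it was called in 0 of the 7 members by edgeR, where 0.105% of all genes were called. At an unadjusted p under 0.05 it was 2, Igf1 and Vegfa, and DESeq2 called 1, Igf1. Without a filter on low counts, edgeR called 2, Igf1 and Vegfa. For Igf1 the difference of the log2 effects was 0.48 (SE 0.13, 95% interval 0.20 to 0.75, adjusted p = 0.16) and for Vegfa 0.64 (SE 0.21, 95% interval 0.20 to 1.08, adjusted p = 0.24). For the other 5 the interval held 0, from Pdgfa at -0.03 (-0.43 to 0.37) to Hgf at -0.52 (-1.41 to 0.37). With the difference as Wnt3a+IL4, 3 of 7 members were called, all lower, where 7.33% of all genes were called. Igf1 was at -2.43 (SE 0.13, adjusted p = 4.1e-08), Pdgfa at -1.09 (SE 0.19, adjusted p = 0.002) and Fn1 at -2.62 (SE 0.49, adjusted p = 0.0035). The call on Fn1 was lost without mouse 3 (adjusted p = 0.085), while those on Igf1 and Pdgfa held in all 15 fits that left out a mouse or a library. Pdgfb, Met and Hgf were not called by edgeR under either reading. Without a filter on low counts, Pdgfb (-0.47, adjusted p = 0.022) and Vegfa were also called with the difference as Wnt3a+IL4. Of the 15 fits that left out a mouse or a library, Pdgfb was called in 3 and Vegfa in 2. DESeq2 called 4 members under this reading, with Vegfa as the added one.

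**Figure D5:**
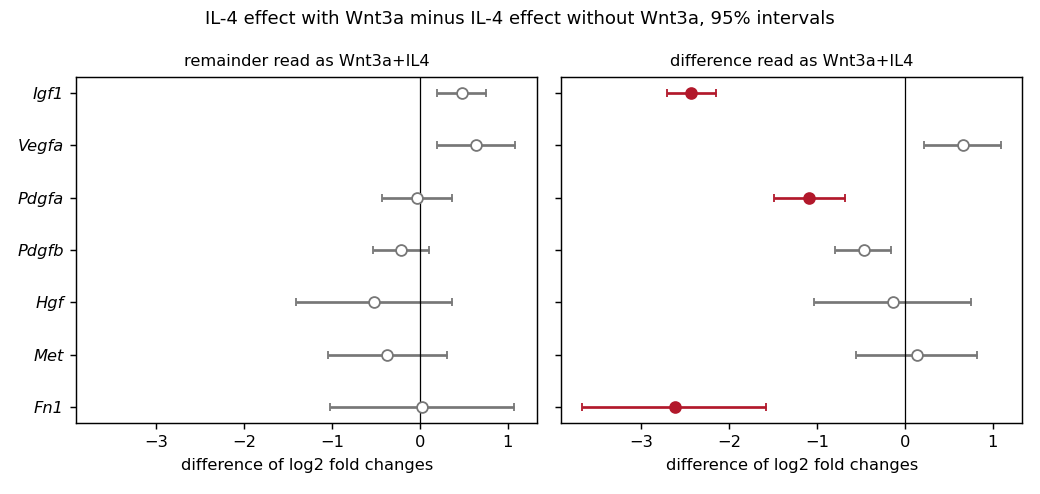
Effect of IL-4 with Wnt3a minus its effect without Wnt3a, on the log2 scale with 95% intervals, for the 7 tested members under both readings of the parts, filled red where called. With the remainder as Wnt3a+IL4 no member is called, and with the difference as Wnt3a+IL4 Igf1, Pdgfa and Fn1 lie left of 0.

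Over the 12 libraries, the tested genes most like each member in log2 CPM were named by Pearson's r, which describes these libraries and their treatment groups only. For Igf1 they were Itgb3 (r = 0.975) and Flt1 (0.970), both on the lists above, and for Met Slc7a11 (0.974) and Ero1l (0.969). For Pdgfb they were Fhl3 (0.984) and Ank (0.980), for Pdgfa Ptgs1 (0.961) and Tbxas1 (0.958), for Fn1 Casp6 (0.943) and Tmcc2 (0.919), for Hgf Asah2 (0.914) and Parg (0.911), and for Vegfa Snhg1 (0.895) and Stkld1 (0.894). Among the members, r was highest between Igf1 and Pdgfa, at 0.86, and lowest between Pdgfb and Met, at -0.92.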

How the data were processed

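The labels and methods state that the authors assessed single Illumina HiSeq 2500 reads with FastQC 0.11.7, ran Trimmomatic 0.36 on them, aligned with STAR 2.6.0 against mm10, used SAMtools 1.9 and counted reads per gene with HTSeq 0.11.1. The deposited values are raw counts, with no normalization, for 48526 Ensembl identifiers in 12 columns. Symbols were found for 48058 of them. Rows without a gene name numbered 0, and columns left aside 0.

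The difference and the remainder were solved from the counts of each mouse as given in the report, and 0 genes came out negative. The main test was the quasi-likelihood test of edgeR 4.0.16 (glmQLFit and glmQLFTest, R 4.3.3) after TMM scaling, with the 12 libraries in 1 fit, no term for the mouse and Benjamini-Hochberg adjustment over the 12421 genes that reached 10 counts in 3 or more libraries. SEs are the log2 fold change over the root of F, and 95% intervals are not adjusted for the number of genes. Each group holds 1 sample per mouse, so the mouse is the replicate. Total counts of 13342492 to 17453377 set the precision, and reads carry no molecular identifiers, so floors cover counting error only.

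The test was checked on simulated counts with known changes. These were drawn independently for each library, without an effect of the mouse, so the check does not cover the pairing of samples. The spread of each gene was set by the trend with expression level, so differences in spread between genes are not covered either. The outcome of the check is not given here. The same mouse gave a sample to each group, so the labels pair the samples. Deviations of same-mouse libraries from their group means correlated between -0.42 and 0.45 over 18 pairs, 6 of them over 0.1. Those below -0.1 were at -0.42, -0.21, -0.21 and -0.12. Alternatives were DESeq2 1.42.0, its size factors or library totals as scaling, all genes with at least 1 count, at least 1 CPM in at least 3 libraries, only the groups compared, the mouse as replicate block, each mouse or library left out, and the deposited columns as labelled. From each list, the genes named are up to 2 per comparison with Untreated, called with the highest absolute log2 fold change, 1 direction in all 3 mice and a mean of 2 CPM or more in the group where they were higher. For each tested member, the 2 genes with the highest Pearson's r of log2 CPM (prior count 2) are named. Gene positions, exon overlaps and exon lengths come from GENCODE vM21, and promoters from RefSeq. Members, lists and motifs were chosen with earlier results of these data known. The other data sets of the study were not analysed here.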

Additional observations from a re-analysis of the deposited data

Results flagged for a closer look

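The effect of IL-4 differed between cells with and without Wnt3a in 3 members when the difference was read as Wnt3a+IL4, by the test of the difference of effects in edgeR. The value on the log2 scale was -2.43 for Igf1, -1.09 for Pdgfa and -2.62 for Fn1. In IL4 against Untreated the 3 genes were at 0.98, 0.56 and 1.30. In the difference against the remainder they were lower, with the remainder above the difference by 1.45, 0.53 and 1.33. With the remainder read as Wnt3a+IL4, the same test gave 0.48, -0.03 and 0.03 and called 0 members. Which reading is right cannot be told from the labels. Groups of 3 libraries are too small for a test of single outlying samples.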

How the results depend on the processing

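The alternatives gave 1015 values for the 7 tested members, of which 876 kept direction and side of the threshold, 61 lost the call, 27 gained one and 51 changed sign. The cause was not tested unless named. Counts of called members in IL4 against Untreated went from 3 to 5 without a filter, to 5 with the columns as deposited, and to 1 to 3 with a mouse or library left out. In the remainder against Untreated, 4 became 2 with the deposited columns. In the remainder against the difference, 3 became 1 with only the groups compared, 0 with the deposited columns, which share reads, and 1 to 3 with a mouse or library left out. For the effect of IL-4 with minus without Wnt3a, remainder as Wnt3a+IL4, 0 became 1 with DESeq2, 2 without a filter and 1 with the deposited columns. With the difference as Wnt3a+IL4, 3 became 5 without a filter and 2 to 5 with a mouse or library left out.

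With the deposited columns, signs changed for the remainder against Untreated in Igf1 (-0.08) and against IL4 in Hgf (0.07) and Fn1 (-0.42), for the effect of IL-4 with minus without Wnt3a, remainder as Wnt3a+IL4, in Igf1 (-0.73) and Fn1 (-1.08), and for the difference against Untreated in Flt1 (0.77). These columns mix both parts. With library totals as scaling, the sign changed in Pdgfa for the effect of IL-4 with minus without Wnt3a, remainder as Wnt3a+IL4 (0.01). Leaving out a mouse or library changed signs in uncalled results only. The ranges were -0.11 to 0.27 for Met in IL4 against Untreated, -0.41 to 0.41 for Fn1 in the difference against Untreated and -0.14 to 0.76 for Hgf in the remainder against Untreated. Between the remainder and the difference they were -0.11 to 0.05 for Vegfa and -0.44 to 0.31 for Hgf. Against IL4 they were -0.20 to 0.41 for Hgf in the difference, and -0.20 to 0.14 for Hgf and -0.09 to 0.47 for Fn1 in the remainder. For the effect of IL-4 with minus without Wnt3a they were -0.13 to 0.16 for Pdgfa and -0.22 to 0.52 for Fn1 with the remainder as Wnt3a+IL4, and -0.96 to 0.38 for Hgf and -0.18 to 0.35 for Met with the difference.

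With the mouse as replicate block, 4 members were called in IL4 against Untreated, with Fn1 at 1.35 as the added one, and the block changed no other member call. Over all genes, calls in IL4 against Untreated went from 422 to 812 without a filter, 708 with the deposited columns and 77 without mouse 3, and those between the remainder and the difference from 652 to 1454, 0 and, with a mouse or library left out, 97 (without mouse 3) to 1188 (without mouse 2), and to 422 with only the groups compared. Without mouse 3, calls fell from 2884 to 1220 in the difference and from 3137 to 1375 in the remainder against Untreated, and from 2519 to 1208 and from 2521 to 1043 against IL4. For the effect of IL-4 with minus without Wnt3a, 13 became 165 with DESeq2, 575 without a filter, 142 with the deposited columns and 0 to 43 with a mouse or library left out, and 910 became 1505 without a filter and 265 to 1459. Of 33 calls on the named partner genes, 23 held under every alternative. Depth limits Hbegf, which was tested without a filter only, and Areg and Ereg, which had 0 counts.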
